A study of Rattus norvegicus with 14 samples.

Results

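The acyl-CoA synthetases and lipid droplet genes described here are 7 genes, Acsm3, Acsl1, Acsl3, Acsl4, Acsl5, Plin2 and Pctp, followed in rat liver after feeding with or without vitamin A. Every probe set (the group of short probes that measures 1 transcript on an Affymetrix array) annotated to 1 of these symbols was taken, which gave 15 of the 8740 probe sets besides controls, for 7 of 4736 genes with a symbol of their own. Acsl1 had 4 of them, Acsl4 had 3, Acsl3, Acsl5 and Plin2 had 2 each, and Acsm3 and Pctp had 1 each. Of the 15, 13 were bright enough to enter the fit over all probe sets, and each of the 7 genes kept at least 1. The genes were selected on the difference between deficient and sufficient livers measured on these same arrays, so their diet differences are given as a description and not as a tested result.

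A fatty acid must be joined to coenzyme A before a cell can burn it or build it into lipid, and acyl-CoA synthetases make that bond. Enzymes of the Acsm family act on medium-chain fatty acids inside mitochondria, whereas those of the Acsl family act on long chains at the endoplasmic reticulum, the outer mitochondrial membrane and lipid droplets. Lipid droplets are stores of neutral lipid, mainly triglyceride and cholesteryl ester, coated by perilipins such as Plin2. In liver they lie in hepatocytes and, filled with retinyl ester, in stellate cells, the body's main store of vitamin A.

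The study fed male rats a vitamin A-deficient or a vitamin A-sufficient diet for 53 days and took the livers at 74 days of age. RNA from the deficient livers was prepared for 7 arrays and RNA from the sufficient livers for 7 arrays, in each diet 3 from about 2 µg of total RNA, with the numbers 1, 2 and 4, and 4 from about 10 µg, with the numbers 1 to 4. The labels give no strain, and they do not say whether arrays of the same diet and number share a liver. Such arrays were averaged and are called an animal below, so n = 4 animals a diet, and animal 3 of each diet rests on its 10 µg array alone. For diet, p-values measure the spread between these averages. For RNA amount and its interaction with diet they measure the spread between single arrays, some of which may share a liver. Levels are log2 of the scaled intensity plus 16, on which an intensity of 0 reads 4, and differences are deficient minus sufficient on that log2 scale with a standard error (SE) from limma. Such differences understate changes of dim probe sets. Levels of different probe sets are not comparable with each other. The hepatocyte markers Alb, Serpina1 and Hpx had mean levels of 15.15 to 15.52 over both diets. As a measure of RNA quality, GAPDH probe sets at the 3' end exceeded those at the 5' end by a log2 ratio that ran from 0.58 to 1.12 in deficient animals and from 0.62 to 0.94 in sufficient animals, and that of beta-actin from 0.35 to 0.70 against 0.38 to 0.77.

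In the RefSeq annotation of the rat build GRCr8, Acsm3 lies on chromosome 1 at 183564652 to 183591328, Acsl5 on chromosome 1 at 264294851 to 264341943, Acsl1 on chromosome 16 at 52487870 to 52554110, Acsl3 on chromosome 9 at 87563601 to 87613078, Acsl4 on chromosome X at 110739633 to 110803416, Plin2 on chromosome 5 at 106202634 to 106258748 and Pctp on chromosome 10 at 75305999 to 75351919. All 7 genes matched a RefSeq promoter window, and the 250 bases before the start are shown for Acsm3, which differed most between the diets, and for Acsl3 and Acsl5, whose values differed little, because the windows of these 3 end at the base before the annotated gene start. They are chr1:183564402-183564651, chr9:87563351-87563600 and chr1:264294601-264294850, each on the plus strand and written 5′ to 3′, with any AGGTCA or AGTTCA in capitals on either strand. These 6-base half-sites are the letters that receptors paired with RXR, among them the retinoic acid receptors and PPAR alpha, are known to read.
Acsm3: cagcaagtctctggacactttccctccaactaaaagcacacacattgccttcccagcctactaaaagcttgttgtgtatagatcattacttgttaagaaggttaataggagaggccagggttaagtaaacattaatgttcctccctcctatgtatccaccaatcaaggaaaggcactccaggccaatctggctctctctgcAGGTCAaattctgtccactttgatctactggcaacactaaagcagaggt
Acsl3: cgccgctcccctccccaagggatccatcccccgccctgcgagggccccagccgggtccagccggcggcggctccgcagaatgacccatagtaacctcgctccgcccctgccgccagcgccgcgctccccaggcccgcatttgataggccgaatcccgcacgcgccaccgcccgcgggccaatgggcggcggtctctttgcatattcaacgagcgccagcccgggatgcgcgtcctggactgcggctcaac
Acsl5: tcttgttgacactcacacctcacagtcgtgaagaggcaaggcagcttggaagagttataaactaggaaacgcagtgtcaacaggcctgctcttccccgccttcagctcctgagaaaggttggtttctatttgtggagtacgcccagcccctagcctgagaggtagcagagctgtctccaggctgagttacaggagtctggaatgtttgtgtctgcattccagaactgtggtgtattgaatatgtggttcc
The Acsm3 window held 1 AGGTCA, 49 to 44 bases before the start, the Acsl3 and Acsl5 windows held neither half-site, and of the windows not shown only 1 of the 2 for Pctp held a match, an AGTTCA at 133 to 128 bases before its start. Over all 33469 windows of this length, 14.1% held AGGTCA and 12.2% held AGTTCA on either strand. The spaced repeats AGGTCANAGGTCA, AGGTCANNAGGTCA and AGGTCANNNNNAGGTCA, which contain the half-site, matched none of the members' windows, and 0.0508%, 0% and 0.00896% of all windows. The windows also differed in CpG count, with 0 in Acsm3, 31 in Acsl3 and 4 in Acsl5, against a median of 5 over all windows. A match of letters is not evidence of binding.

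Acsm3, Acsl4, Plin2 and Pctp read lower in deficient livers, by 1.56-fold to 3.22-fold in the 5 probe sets of these genes whose diets did not overlap. Acsl1, Acsl3 and Acsl5 differed by at most 0.20 in size over their 7 tested probe sets, and the diets overlapped in all 7. Over the 13 tested probe sets the median difference was -0.17, with 4 positive and 9 negative, and over all 5244 tested probe sets the median was 0.04, with 3063 positive and 2181 negative. The 5 probe sets whose diets did not overlap were also those past an adjusted p of 0.05 in the limma fit over all probe sets, where 1.72% of all tested probe sets passed (90, of them 38 or 0.725% higher and 52 or 0.992% lower). Over all tested probe sets, 8.91% had diets that did not overlap, 5.84% higher and 3.07% lower. Because the members were chosen by this contrast, nothing is read from that count. In bulk liver, fewer cells of a type and less RNA per cell cannot be told apart, here and for every difference below.

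**Figure D1:**
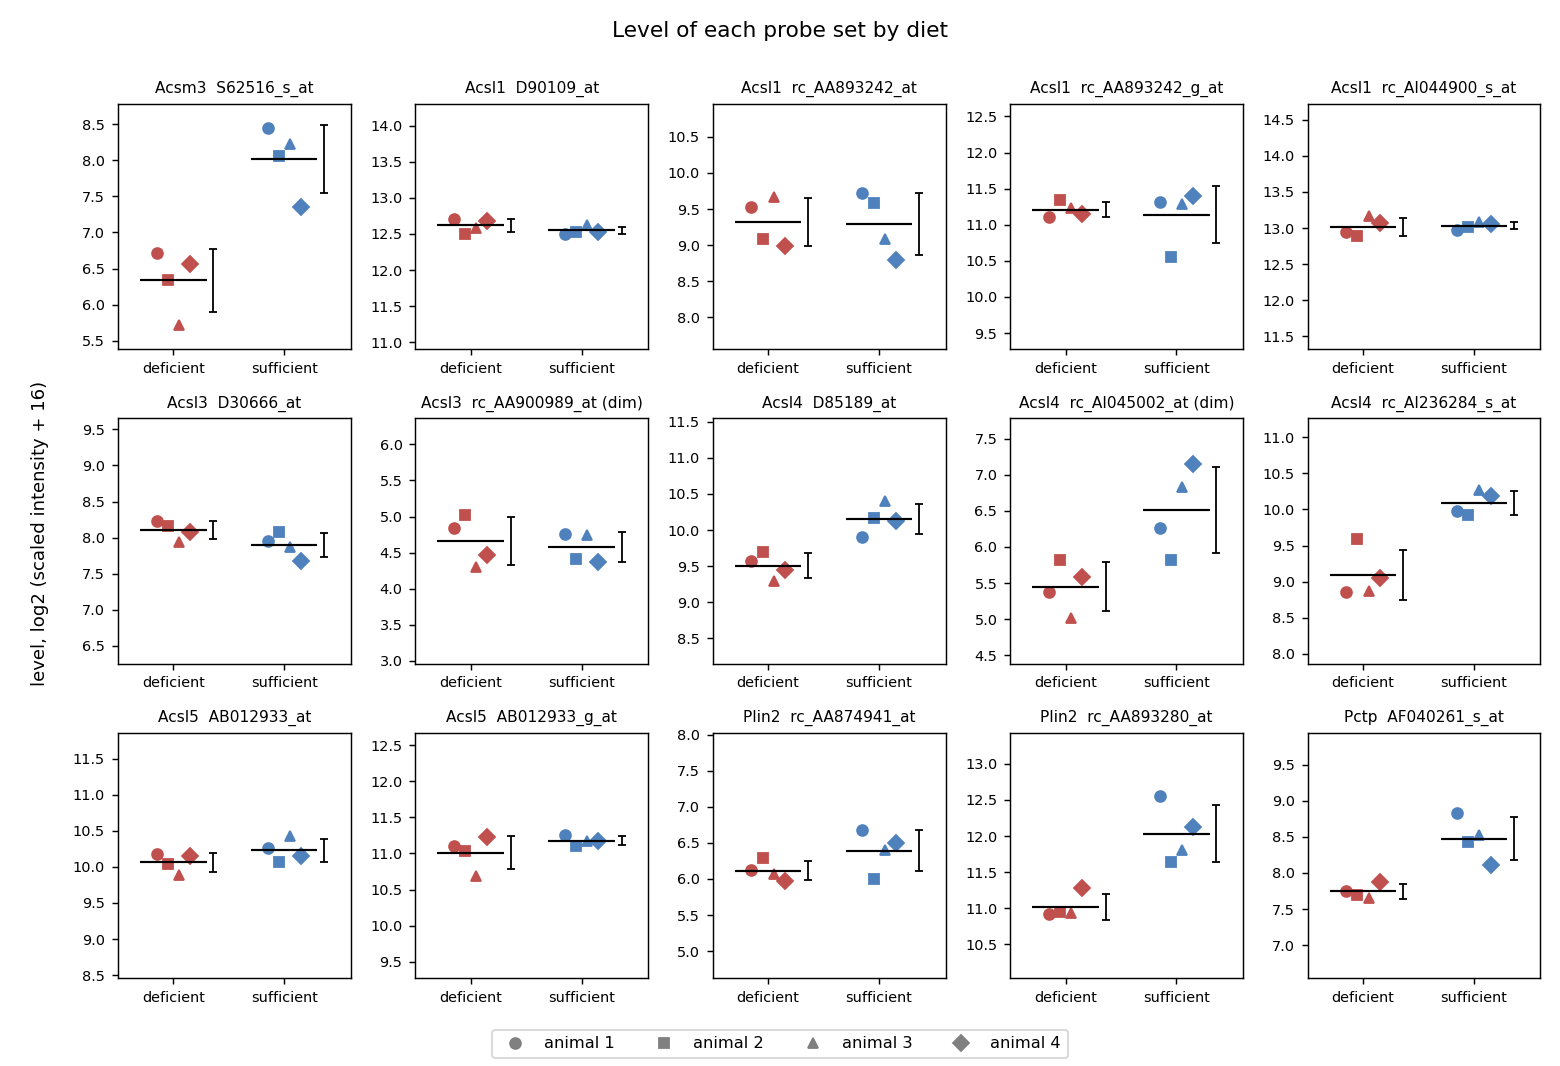
Level of each of the 15 probe sets, as log2 of scaled intensity plus 16, in the 4 deficient (red) and 4 sufficient (blue) animals. Symbols mark the animal number, horizontal lines the mean and vertical bars the SD, every panel spans the same number of log2 units, and "dim" marks the 2 probe sets under the filter. The diets are apart in the panels of Acsm3, 2 of 3 for Acsl4, the brighter of 2 for Plin2, and Pctp.

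Acsm3, the mitochondrial medium-chain enzyme first known in rats as the SA gene of hypertensive strains, showed the largest difference of the members. Its log2 levels were 6.71, 6.34, 5.72 and 6.57 in deficient animals 1 to 4, against 8.44, 8.06, 8.22 and 7.36 in sufficient animals 1 to 4. Every deficient value lay under every sufficient value, and the nearest pair, deficient animal 1 and sufficient animal 4, was 0.64 apart. The means were 6.34 ± 0.44 in deficient and 8.02 ± 0.47 in sufficient livers (SD, n = 4 each), a difference of -1.69 (SE 0.27), or 3.22-fold lower. On the scaled intensity scale the deficient animals read 36.8 to 88.8 and the sufficient animals 148 to 332, so the deficient level of this probe set (S62516_s_at) lay near the filter at 6.20 and the size depends on the constant added. It was -1.90 with a constant of 1 and -1.26 with 64. The same difference was -1.39 in the 2 µg arrays alone and -1.70 in the 10 µg arrays alone, and it ran from -1.91 to -1.48 when 1 animal at a time was left out.

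Acsl4, the long-chain synthetase that prefers arachidonic acid and other highly unsaturated chains, was the only 1 of the 4 Acsl genes with diets that did not overlap in any probe set, and it read lower in all 3. Probe set D85189_at read 9.57, 9.70, 9.30 and 9.44 in deficient animals 1 to 4, against 9.90, 10.17, 10.40 and 10.12 in sufficient animals 1 to 4. The lowest sufficient animal, number 1, lay 0.20 above the highest deficient animal, number 2. The means of 9.50 ± 0.17 and 10.15 ± 0.21 (SD, n = 4 each) gave a difference of -0.65 (SE 0.14), or 1.56-fold lower in deficient livers.

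The Acsl4 probe set rc_AI236284_s_at read 8.86, 9.60, 8.87 and 9.04 in deficient animals 1 to 4, against 9.98, 9.92, 10.27 and 10.18 in sufficient animals 1 to 4. Deficient animal 2 stood highest of its diet in both of these probe sets and still lay under all sufficient animals. The difference was -0.996 (SE 0.17), or 1.99-fold lower, from 9.09 ± 0.35 in deficient and 10.09 ± 0.17 in sufficient livers. The third probe set, rc_AI045002_at, averaged 5.45 ± 0.34 in deficient and 6.51 ± 0.59 in sufficient livers, a difference of -1.06. It was too dim to enter the fit, and deficient animal 2 and sufficient animal 2 both read 5.82, so the diets touched.

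Acsl1, the main long-chain synthetase of liver and a known target of PPAR alpha, had 4 tested probe sets with differences between -0.02 and 0.07. Its brightest, rc_AI044900_s_at, read 12.94, 12.88, 13.16 and 13.06 in deficient animals 1 to 4, against 12.97, 13.02, 13.08 and 13.05 in sufficient animals 1 to 4, a difference of -0.02 (SE 0.09). The 4 sufficient animals spanned 0.11 and lay inside the deficient range. D90109_at gave 0.07 (SE 0.09). The other 2, rc_AA893242_at and rc_AA893242_g_at, were designed from the same sequence and so do not count as separate measurements. They varied more between animals, with a within-diet SD of 0.38 and 0.29 against 0.09 and 0.08 for the first 2 named, and gave 0.02 (SE 0.22) and 0.07 (SE 0.18).

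Acsl3, which sits on the endoplasmic reticulum and on forming lipid droplets, was the 1 member with a positive difference larger than 0.10. Its tested probe set D30666_at read 8.23, 8.17, 7.94 and 8.08 in deficient animals 1 to 4, against 7.95, 8.08, 7.87 and 7.68 in sufficient animals 1 to 4. The ranges overlapped, and the difference of 0.20 (SE 0.13) was close to the within-diet SD of 0.15. Its other probe set, rc_AA900989_at, read 4.66 ± 0.33 in deficient and 4.57 ± 0.21 in sufficient livers, near the value of an intensity of 0, and its difference was -0.27 in the 2 µg arrays and 0.48 in the 10 µg arrays, so no level can be read from it.

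Acsl5, found on mitochondria and the endoplasmic reticulum, had 2 probe sets designed from 1 sequence. AB012933_g_at read 11.11, 11.03, 10.69 and 11.22 in deficient animals 1 to 4, against 11.26, 11.10, 11.17 and 11.17 in sufficient animals 1 to 4. Deficient animal 3 was the lowest of the 8 in this probe set and in AB012933_at, and the diets overlapped in both. The differences were -0.16 (SE 0.13) for AB012933_g_at and -0.17 (SE 0.12) for AB012933_at. Without deficient animal 3 they were -0.05 and -0.11, without sufficient animal 3 they were -0.16 and -0.10, and in the 2 µg arrays alone both were -0.01.

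Plin2, the perilipin that coats lipid droplets in most cell types and whose protein is stable only on lipid, was lower in deficient livers by its bright probe set. That probe set, rc_AA893280_at, read 10.91, 10.95, 10.93 and 11.28 in deficient animals 1 to 4, against 12.55, 11.65, 11.81 and 12.12 in sufficient animals 1 to 4. Deficient animals 1 to 3 lay within 0.03 of each other whereas the sufficient animals spanned 0.90, and the diets did not overlap. The means were 11.02 ± 0.17 in deficient and 12.03 ± 0.40 in sufficient livers (SD, n = 4 each), a difference of -1.01 (SE 0.18), or 2.02-fold lower. The second Plin2 probe set, rc_AA874941_at, averaged 6.24 over the 14 arrays, just above the filter at 6.20. It read 6.11 ± 0.13 in deficient livers, under the filter, and 6.39 ± 0.28 in sufficient livers. It therefore entered the fit only through its sufficient level. It gave -0.28 (SE 0.22) with overlapping diets, and 0.00 in the 2 µg arrays against -0.48 in the 10 µg arrays.

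Pctp, the START-domain protein (StarD2) that carries phosphatidylcholine between membranes, read 7.74, 7.69, 7.65 and 7.88 in deficient animals 1 to 4, against 8.83, 8.43, 8.52 and 8.12 in sufficient animals 1 to 4. The deficient animals spanned 0.23 and the sufficient animals 0.71, without overlap. The difference of its probe set AF040261_s_at was -0.73 (SE 0.16), or 1.66-fold lower, from 7.74 ± 0.10 in deficient and 8.47 ± 0.29 in sufficient livers.

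**Figure D2:**
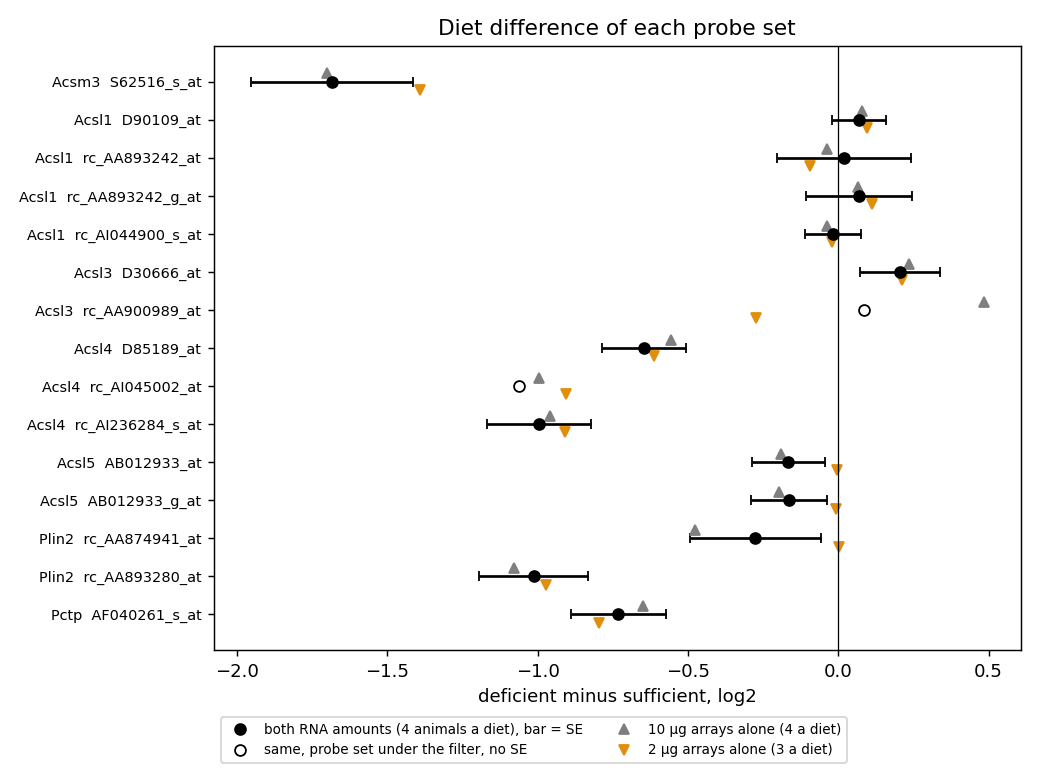
Difference between deficient and sufficient livers (log2, horizontal axis) for each probe set. Filled circles use both RNA amounts with 4 animals a diet and bars are the SE, open circles are probe sets under the filter, and triangles give the 10 µg (4 arrays a diet) and 2 µg arrays (3 a diet) alone. Acsm3 lies furthest left at -1.69, followed by Acsl4 and Plin2 near -1, and the Acsl1 circles lie within 0.07 of 0.

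The members also varied within a diet, and not all in the same animals. Among sufficient animals, Acsm3 and Pctp had the same order from high to low, animals 1, 3, 2 and 4, while Plin2 ran 1, 4, 3 and 2 and Acsl4 by D85189_at ran 3, 2, 4 and 1. Sufficient animal 1 was therefore highest for Acsm3, Plin2 and Pctp and lowest for that Acsl4 probe set. The clock output gene Dbp, whose liver transcript swings with the time of day, differed widely in the same diet. Its log2 levels were 9.43, 9.18, 9.42 and 9.72 in deficient animals 1 to 4, against 4.69, 9.37, 7.68 and 6.58 in sufficient animals 1 to 4, so among sufficient animals Dbp had the opposite order to Plin2. With Dbp as a covariate the Plin2 difference was -0.57 (SE 0.17), the largest shift of the 15 probe sets at 0.44. The other probe sets whose diets did not overlap gave -1.61 (SE 0.41) for Acsm3, -0.80 (SE 0.18) and -0.96 (SE 0.25) for Acsl4 and -0.59 (SE 0.23) for Pctp. Sufficient animal 2, the only 1 of its diet with a Dbp level within the deficient range, read 11.65 for Plin2. That was the lowest of its diet and above all 4 deficient animals. Sufficient animals 1, 3 and 4 had Dbp levels under the deficient range, so diet and Dbp largely go together here. The labels give no time of day and no feeding state, and their part in these differences was not tested.

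**Figure D3:**
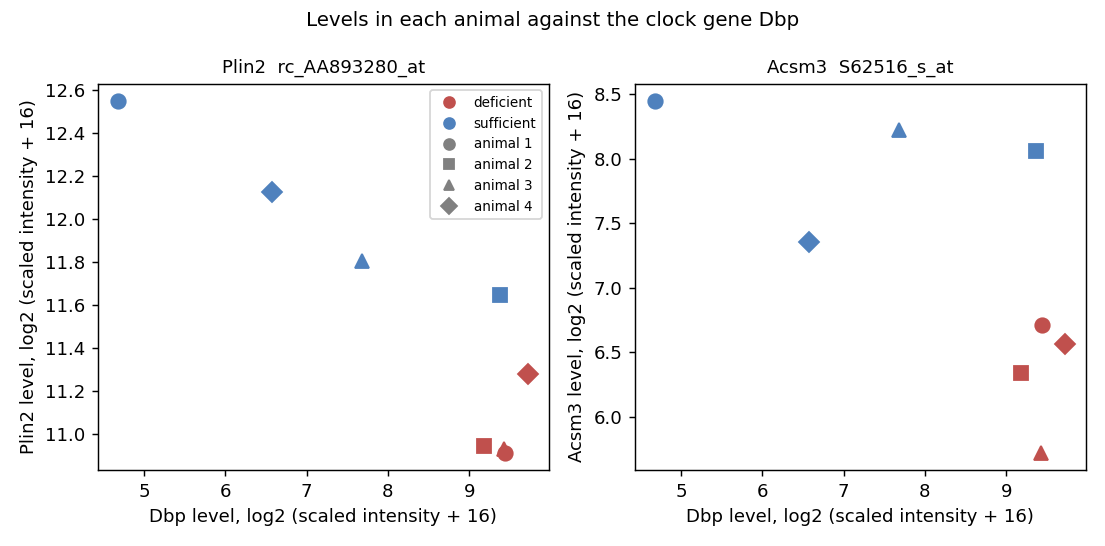
Plin2 (left) and Acsm3 (right) levels in each animal on the vertical axis against the level of the clock gene Dbp on the horizontal axis, all as log2 of scaled intensity plus 16. Deficient animals are red, sufficient animals blue, and symbols mark the animal number. The deficient animals cluster at a Dbp level of 9.18 to 9.72 and the sufficient animals spread from 4.69 to 9.37.

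The RNA amount, which had no part in the choice of the genes, was compared next. The comparison asks for a mean shift and does not show how closely single arrays repeat. In deficient number 4, for example, rc_AA893242_at of Acsl1 read 9.40 at 2 µg and 8.51 at 10 µg. No member probe set differed between the 2 µg and the 10 µg arrays in limma, with diet in the model and all 14 arrays as separate samples. The differences, 2 µg minus 10 µg, ran from -0.18 (SE 0.13, adjusted p = 0.863) for Pctp, at 7.93 ± 0.50 in 6 arrays of 2 µg and 8.11 ± 0.40 in 8 arrays of 10 µg, to 0.14 (SE 0.22, adjusted p = 0.959) for Acsm3, at 7.32 ± 0.87 and 7.18 ± 1.00 (SD over both diets). At 0% of all 5244 probe sets past the threshold, with 347 at an unadjusted p under 0.05, none of them a member, the comparison called nothing anywhere. With diet and number as a block, 2 probe sets passed, none of them a member. That fit had 632 of the 5244 at an unadjusted p under 0.05, so amount shifts elsewhere are not excluded, and no member was among them. The diet difference of a member did not depend on the RNA amount beyond the spread either. The interaction of diet and amount was at most 0.48 (SE 0.43) in size, for the dim Plin2 probe set, with adjusted p = 0.9995 for each of the 13, and 0% of all probe sets passed, with 96 at an unadjusted p under 0.05 and no member among them. The SE of the 13 interactions ran from 0.14 to 0.47, so smaller ones could go unseen.

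**Figure D4:**
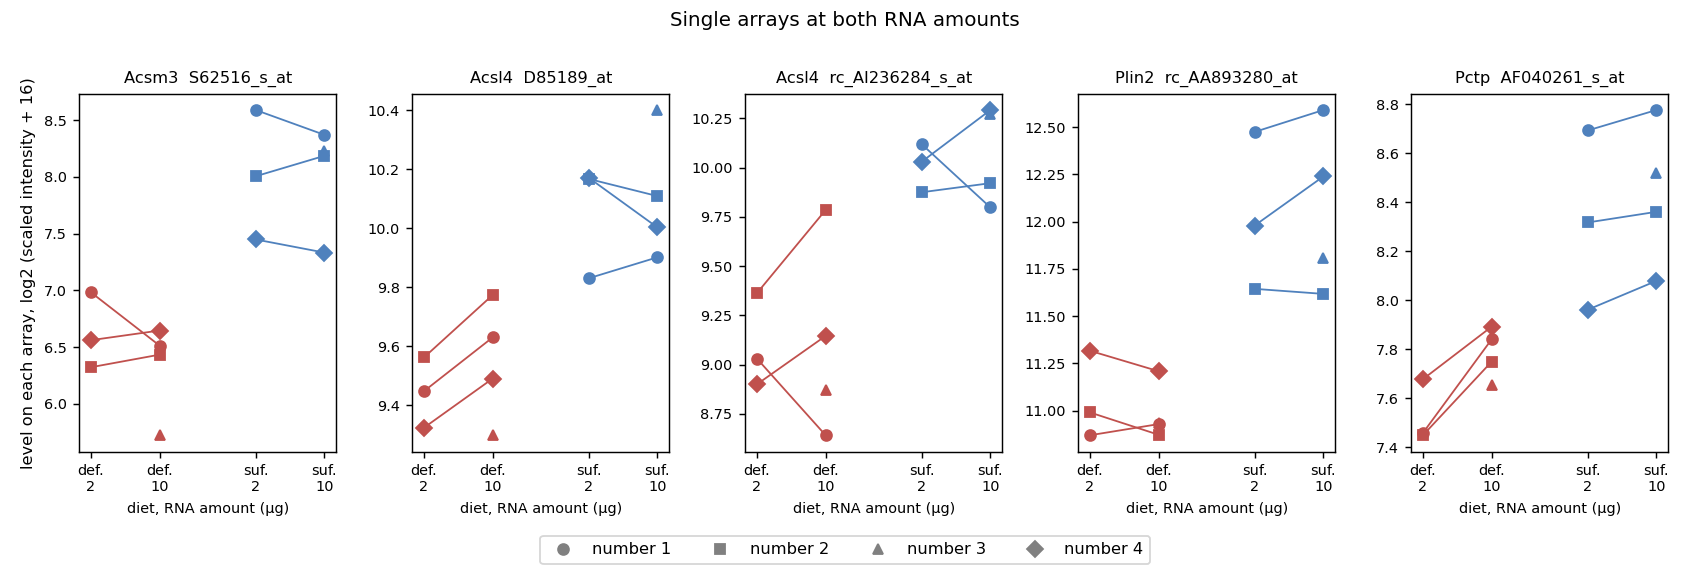
Single-array levels, as log2 of scaled intensity plus 16, of the 5 probe sets whose diets did not overlap, at 2 and 10 µg of RNA (horizontal axis) in deficient ("def.", red) and sufficient ("suf.", blue) livers. Lines join arrays of the same diet and number, and number 3 has no 2 µg array. In all 5, every deficient array lies below every sufficient array of the same amount. The 5 were picked because averages of these same arrays did not overlap, so this is no separate evidence of a diet difference.

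By the smallest mean gap between the 8 animals' values, each centred on its own mean, the probe sets most like Acsm3 were those of the sulfotransferase Sult1c3 (mean gap 0.26, diet difference -1.43), the lipoxygenase Alox15 (0.29, -1.65), the ornithine aminotransferase Oat (0.31, -1.11) and the water channel Aqp1 (0.32, -1.04). Those most like the bright Plin2 probe set were the transketolase Tkt (0.15, -0.81), the peroxisomal thiolase Acaa1b (0.17, -1.16), Gsto1 (0.20, -0.66) and Myh1 (0.20, -0.77). For Pctp they were Epb41l4b, Pdlim1, Elovl5 and Ldhd, with gaps of 0.13 to 0.15, and for D85189_at of Acsl4 they were Crem, Stmn4, Hspa5 and Nln, with gaps of 0.10 to 0.11. The smallest gap was larger for Acsm3 than for the other 3. Gaps were not scaled by spread, and Acsm3 had the largest diet difference and within-diet SD of these 4 probe sets. These likenesses are a description over 8 values and 4329 probe sets with 1 symbol.

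The genes around the members on the same pathways mostly did not pass by diet. Over 7 lists of 121 genes, 51 were tested with 1 probe set each, and 1 rose and 1 fell in limma, beside 1.88% of all 3135 tested genes. The median difference of the 51 was -0.01, against 0.04 over all tested probe sets. Acaa1b, the peroxisomal thiolase in the list of PPAR alpha and its targets, read 9.02, 9.003, 9.13 and 8.87 in deficient animals 1 to 4, against 10.57, 10.08, 9.98 and 10.01 in sufficient animals 1 to 4. It fell 2.23-fold (difference -1.16, SE 0.15, limma adjusted p = 0.00195), without overlap. With Dbp as a covariate it was -0.91 (adjusted p = 0.0838). Abcb4, the canalicular transporter that moves phosphatidylcholine into bile, read 9.95, 9.73, 10.07 and 10.01 in deficient animals 1 to 4, against 9.54, 9.22, 9.08 and 8.73 in sufficient animals 1 to 4. It rose 1.74-fold (difference 0.80, SE 0.17, limma adjusted p = 0.0384). Its call was lost without deficient animal 1, 3 or 4 or sufficient animal 2, 3 or 4, at adjusted p of up to 0.125, and when arrays were scaled to a shared median (adjusted p = 0.0642). It was also lost with Dbp as a covariate (adjusted p = 0.209), with either RNA amount by itself (adjusted p = 0.214 for 2 µg and adjusted p = 0.0771 for 10 µg), with no filter (adjusted p = 0.0557), with no trend (adjusted p = 0.0679) and with the number across diets as a block (adjusted p = 0.0674).

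Of the other enzymes that activate fatty acids, 2 of 16 were tested and neither passed. Slc27a2, a very long-chain synthetase and fatty acid transporter, read 14.08 ± 0.09 in deficient and 13.70 ± 0.06 in sufficient livers (SD, n = 4 each), a difference of 0.38 (SE 0.08, limma adjusted p = 0.0502), without overlap. Slc27a1 gave 0.05 (SE 0.13). The relatives Acsm2 and Acsl6 were on the array but too dim to test. Among 3 tested thioesterases and conjugating enzymes, none passed: the bile acid conjugating enzyme Baat gave 0.33 (SE 0.13), the thioesterase Acot7 -0.12 (SE 0.14) and the mitochondrial thioesterase Acot2 -0.81 (SE 0.27, limma adjusted p = 0.187).

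Of 7 tested genes for fatty acid uptake and carriage, none passed and 6 were negative. The liver fatty acid binding protein Fabp1 gave 0.11 (SE 0.11), the membrane fatty acid binder and aspartate aminotransferase Got2 -0.23 (SE 0.11) and the acyl-CoA binding protein Dbi -0.43 (SE 0.17). Of 9 tested lipid droplet coat proteins and lipases other than Plin2, none passed and 6 were negative, with a median of -0.03. The lysosomal lipase Lipa gave 0.16 (SE 0.13), the carboxylesterase Ces1d -0.02 (SE 0.19) and the droplet protein Hsd17b13 0.42 (SE 0.14, limma adjusted p = 0.187). Of the negative ones, named after their values were seen, the monoglyceride lipase Mgll gave -0.66 (SE 0.19, limma adjusted p = 0.126), without overlap, the lipase Pnpla3 -1.11 (SE 0.67) and the lipase inhibitor G0s2 -0.45 (SE 0.29), both with overlap. Only 2 genes of triglyceride assembly were tested, and neither the acyltransferase Dgat1, at 0.09 (SE 0.12), nor Gpam, at -0.03 (SE 0.29), passed.

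Of 11 tested genes for phosphatidylcholine synthesis and lipid transfer, 1 rose, Abcb4, and 10 did not pass. Lcat, which esterifies cholesterol in plasma, gave 0.42 (SE 0.12, limma adjusted p = 0.140), the phosphatidylethanolamine methyltransferase Pemt 0.09 (SE 0.13) and Pcyt2, of phosphatidylethanolamine synthesis, 0.26 (SE 0.17). Of 17 tested genes in the PPAR alpha list, 1 fell, Acaa1b, and 16 did not pass, with 10 of 17 differences positive and a median of 0.04. The dehydrogenase Acadm gave -0.05 (SE 0.12), the reductase Decr1 0.40 (SE 0.17) and the carnitine palmitoyltransferase Cpt2 -0.18 (SE 0.14). No test of whether the members differ from these genes was made.

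**Figure D5:**
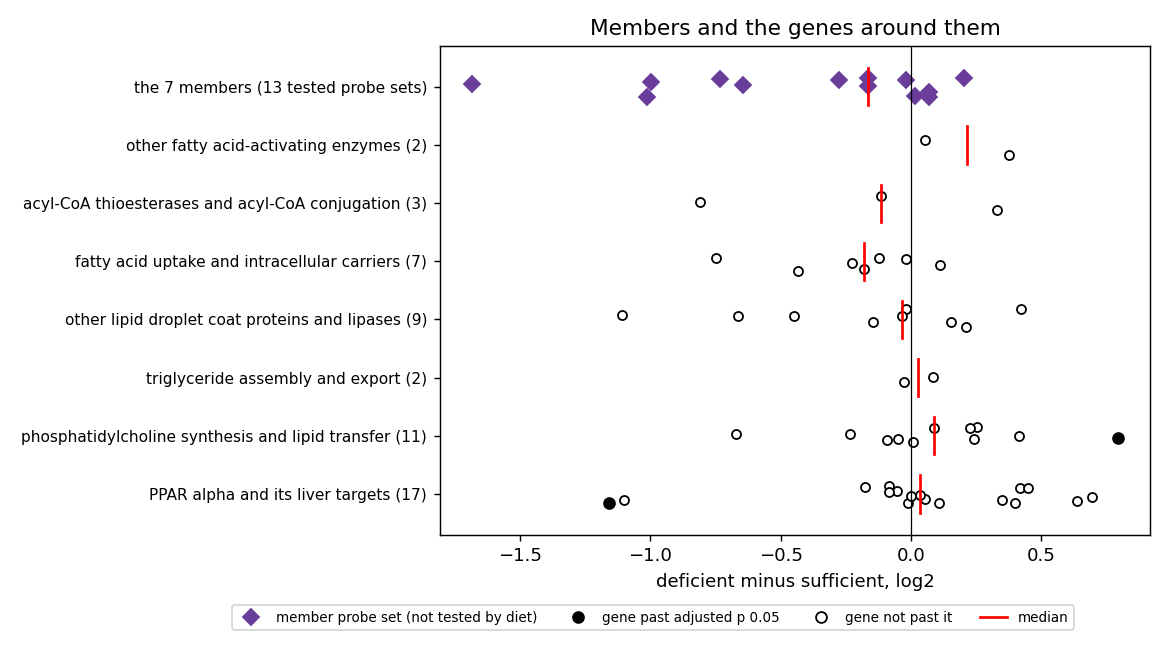
Difference between deficient and sufficient livers (log2, horizontal axis) for the 13 tested member probe sets (diamonds) and for the tested genes of 7 pathway lists (circles, 1 probe set a gene), with the number tested in brackets and a red bar at each median. Filled circles passed an adjusted p of 0.05 in limma: Acaa1b at -1.16 and Abcb4 at 0.80. The vertical scatter within a line has no meaning.

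Markers of other cell types moved with the diet beside these differences, and their part in them was not tested. Of 5 tested erythroid markers, 4 fell, and the summed scaled intensity of the 5 on the array was 3768 to 6429 in deficient and 12194 to 15126 in sufficient animals. Of 4 tested endothelial markers, Lyve1 fell and 3 did not pass. Aqp1 gave -1.04 (SE 0.24, limma adjusted p = 0.0563), without overlap. Kdr gave -0.02 (SE 0.24) and Pecam1 0.22 (SE 0.16), both with overlap. The sum of the 5 endothelial markers on the array was 520 to 632 against 767 to 942. Of 5 tested macrophage markers, Lgals3 rose, and the sum of the 6 on the array was 6977 to 9205 against 5223 to 5966. Of 7 tested stellate cell and fibroblast markers, Vim rose and 6 did not pass. Of the 7 differences 2 were positive and 5 negative, with a median of -0.24, and the collagen gene Col1a1 gave -0.85 (SE 0.24, limma adjusted p = 0.121), without overlap. The sums of the 8 on the array were 2229 to 2713 in deficient and 2113 to 3023 in sufficient animals. None of the tested hepatocyte (7), bile duct (4), adipocyte (3) and lymphocyte (3) markers passed, and the hepatocyte sum was 200410 to 223333 against 155957 to 208363. The bile duct sum was 449 to 626 in deficient and 399 to 434 in sufficient animals. Its markers Epcam (0.40, SE 0.15, limma adjusted p = 0.267) and Spp1 (0.62, SE 0.18, limma adjusted p = 0.121) did not overlap. Krt19, at 0.18, and Cftr, at -0.04, did. The adipocyte markers Plin1 and Fabp4 were too dim to test.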

How the data were processed

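The authors deposited 1 table with a linear intensity for each probe set on each of 14 single-channel Affymetrix rat arrays, whose program and settings are not given in the labels or the file header. Per the labels, targets came from about 10 µg or about 2 µg of liver RNA. From the values, the 2% trimmed mean of every array lay between 1001.9 and 1002.1, so the deposited intensity had already been scaled. All 14 columns were used. After removal of 59 control probe sets, arrays were scaled to a trimmed mean of 500, 16 was added and log2 taken, and probe sets under the 40th percentile of the mean were left out, leaving 5244. The number of arrays limits the precision. Symbols came from the platform annotation, where 7006 probe sets had 1 symbol, 308 several and 1426 none listed.

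For diet, the mean shift between RNA amounts was removed, the arrays of each diet and number were averaged, and the means fitted with limma 3.58.1 (R 4.3.3), lmFit and eBayes with a trend, two-sided, Benjamini-Hochberg over all tested probe sets. Same-numbered arrays within a diet correlated in their deviations at 0.202 to 0.351 in 6 of 6 pairs across amounts, so the pairing rests on the shared number and the data. Amount and interaction used 14 separate arrays. The fits were also run on simulated arrays with normal noise, and no result given here rests on those. Members and lists were chosen with earlier results of these data known. Named were all members, pathway genes that passed, the 3 of each list with the highest sufficient level, and the 4 patterns nearest to each member gene with a difference of at least 0.5. Marker genes were named after their values were seen. Promoter sequences are RefSeq's, build GRCr8, and motif letters were matched with Python 3.11.15. Alternatives were other scalings, constants, filters, no trend, blocks, Dbp as a covariate, single RNA amounts and leaving out each animal.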

Additional observations from a re-analysis of the deposited data

Results flagged for a closer look

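Of the 30 groups of 4 animals formed by the 15 probe sets and the diets, 2 held a value far from the other 3, and chance alone flags about 1 in 20. In the Plin2 probe set rc_AA893280_at, deficient animal 4 read 11.28 while the other 3 deficient animals read 10.91 to 10.95, and it still lay under all sufficient animals. Without that animal the Plin2 difference was -1.10. In the Acsl1 probe set rc_AA893242_g_at, sufficient animal 2 read 10.55 while the other 3 sufficient animals read 11.29 to 11.40. The same animal read 9.59 in the partner probe set from the same sequence, inside the range of its diet.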

How the results depend on the processing

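The differences of the 15 member probe sets were recomputed under the 16 alternatives that can change a difference at all. Of the 240 values, 233 moved by less than the within-diet SD. In 8 of these alternatives 1 animal was left out, which with 4 animals a diet can hardly move a difference by that SD. Those 8 are therefore little sign of stability. The 7 values that moved by more came from a single RNA amount or from Dbp as a covariate. The filters, the trend and the number block leave a difference as it is. Of each gene's brightest probe set, only Plin2 moved by more, to -0.57 with Dbp as a covariate.

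The 5 member probe sets past the threshold became 3 with no filter, 3 with no trend, 2 in the 10 µg arrays alone, 0 in the 2 µg arrays alone, 0 with Dbp as a covariate and 3 with the number across diets as a replicate block, and 2 to 4 when 1 animal was left out. It was 2 without deficient animal 4 or sufficient animal 3, and 3 without deficient animal 1, 2 or 3 or sufficient animal 2. The genes were selected on this contrast, so a kept call is no separate evidence of a diet difference. With 1 animal left out, Acsm3 and the bright Plin2 probe set each kept the call in 8 of 8 fits. For Acsl4, rc_AI236284_s_at kept it in 6 of 8 and D85189_at in 1 of 8. Pctp kept it in 1 of 8. The 90 probe sets past it by diet became 33 in the 2 µg arrays alone, where each diet has 3 arrays, 250 with 14 separate arrays, the animal being a random block, 23 with Dbp as a covariate, and 48 to 94 when 1 animal was left out, with 48 without deficient animal 4. After scaling to a shared median 75 passed, 17 higher and 58 lower. The 2 pathway genes became 1 with a common median, no filter, no trend, either RNA amount alone or the number across diets as a replicate block, 6 with the random block, 0 with Dbp, and 1 to 3 without 1 animal. The same number across diets did not pair animals: their deviations correlated at -0.08 to 0.07.

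For RNA amount, the count of 0 became 2 with diet and number as a replicate block and 0 to 2 without 1 animal; no member passed in any alternative, nor did the interaction call any probe set. The causes of these shifts were not tested. Probe sets near the filter, such as rc_AI045002_at of Acsl4, are limited by signal over background.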
